A study of Mus musculus with 6 samples.

Results

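The genes described here are 8 regulators of G protein signalling (Rgs1, Rgs2, Rgs3, Rgs10, Rgs14, Rgs16, Rgs18 and Rgs19) and the G protein alpha subunits Gna13 and Gnai2, followed in B cells from mouse spleen. They were chosen by symbol in the array annotation, make up 10 of 18193 genes, and are read by 27 of the array's 45101 probe sets. Expression was measured on Affymetrix arrays in 6 mice, all with a transgene that drives Bcl2 from Eµ, an immunoglobulin enhancer active in B cells. The control group, Crebbp-floxed, is CBPF/F x EµBcl2: the gene of the histone acetyltransferase Crebbp is flanked by recombination sites. The other group, Crebbp-deleted, is CBPΔ/Δ x EµBcl2 and carries the deleted form. There are 3 mice in each group, called floxed 1 to 3 and deleted 1 to 3 by the numbers in the labels. Because both groups over-express Bcl2, the comparison asks what the loss of Crebbp adds to it; the labels used here give neither the recombinase nor the age of the mice. The spleen cells had been frozen, thawed and depleted of cells that carry CD43 on magnetic beads, which leaves the B cells untouched.

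Receptors for chemokines and sphingosine 1-phosphate place B cells within the spleen by activating heterotrimeric G proteins. An active receptor makes the alpha subunit exchange GDP for GTP, and the alpha subunit and the beta-gamma pair then signal apart. RGS proteins bind the active alpha subunit and speed up its GTP hydrolysis, which ends the signal. Gnai2 encodes the inhibitory subunit that chemokine receptors use for migration, and Gna13 encodes the subunit that acts through guanine nucleotide exchange factors and helps to hold B cells in the germinal centre.

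A level here is the log2 of an intensity, and a difference is the mean level of the Crebbp-deleted mice minus that of the Crebbp-floxed mice. The 6 arrays had medians between 4.27 and 4.30, and their pairwise correlations over genes lay between 0.982 and 0.994. Crebbp itself was lower in the deleted mice at all 4 of its probe sets, with all 3 deleted samples below all 3 floxed ones at each of them. The difference was −0.50 ± 0.10 (SE; limma adjusted p = 0.0776) at the brightest and −0.79 at one nearly as bright, which passed among all probe sets (limma adjusted p = 0.0331). With the mean of its probe sets Crebbp fell by 0.70 (limma adjusted p = 0.039), and at the set with the largest variance the difference was −0.97 (limma adjusted p = 0.0641). A probe set outside the deleted part does not check a deletion, and the position of these relative to it is not known here. Of the 8 B cell markers listed 7 were measured and none lay below the median probe set (4.29), and B cell marker Ms4a1 (CD20) ran from 12.43 to 12.80. Xist and 3 Y-linked genes marked floxed 1, deleted 1 and deleted 3 as male and the others as female, so the sexes were unequal between the groups. In whole samples of this kind, fewer cells of a type and less RNA per cell cannot be told apart.

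None of the 10 genes passed the test. limma called 0 of them at a Benjamini-Hochberg adjusted p under 0.05 over all genes, against 0.781% of all genes (0.544% higher and 0.236% lower in the deleted group), and 2 of 10, Rgs1 and Rgs18, had an unadjusted p under 0.05, against 14.8%. Their groups did not overlap, which held for 2 of the 10 genes and 21.2% of all genes, once with the deleted group above (11.2% of all genes) and once below (10%). The median difference of the 10 genes was 0.07, beside 0.01 over all genes, and 7 of the 10 differences were positive, against 53.4% of all genes. At the level of probe sets limma called 0 of 27 (0.411% of all probe sets), with 4 of 27 at an unadjusted p under 0.05 (13.6%) and 4 of 27 without overlap (19.8%). None of these counts sets the 10 genes apart from the background, and the values below describe single genes. With 3 samples against 3, a permutation test cannot give a p under 0.1, and none was made.

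**Figure D1:**
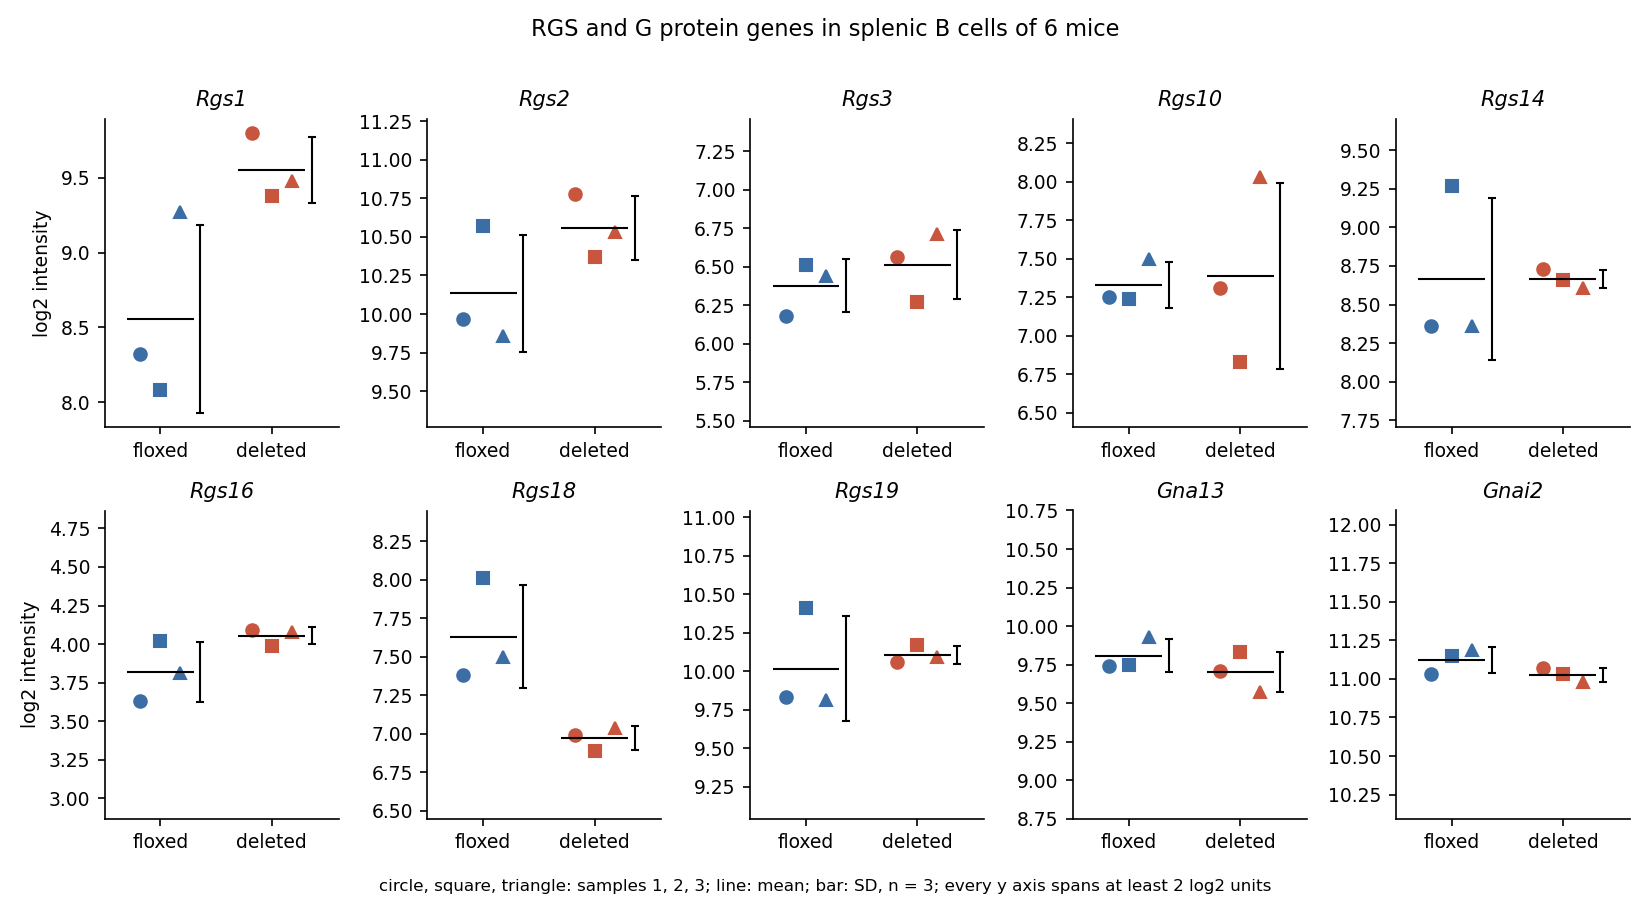
Log2 intensity of the 10 genes in each of the 6 samples (blue, Crebbp-floxed; red, Crebbp-deleted; symbols, sample numbers; line, mean; bar, SD, n = 3). The groups are apart in Rgs1, where the deleted samples lie above the floxed ones, and in Rgs18, where they lie below; in the other 8 genes they overlap.

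Rgs1, which ends signals of Gαi and Gαq and dampens the response of B cells to chemokines, had the largest difference of the family. Its intensities had log2 values of 8.32, 8.08 and 9.27 in floxed 1, 2 and 3, and of 9.80, 9.38 and 9.48 in deleted 1, 2 and 3. All deleted samples were higher than all floxed samples, but floxed 3 lay close below the lowest deleted sample and far above the other floxed mice. The means were 8.56 ± 0.63 and 9.56 ± 0.22 (SD, n = 3 each), a 2-fold difference of 1.00 ± 0.29 (SE; 95% interval 0.31 to 1.68). It did not pass over all genes (limma adjusted p = 0.178). Without floxed 3 the difference of Rgs1 was 1.35 and passed (limma adjusted p = 0.0165), in a fit that called 1.24% of all genes. Leaving out any of the other 5 samples gave 0.76 to 1.08, and Rgs1 did not pass there. The gene has 1 probe set.

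Rgs18, a regulator best known from platelets and megakaryocytes, differed in the opposite direction. It stood at 7.38, 8.01 and 7.50 in the floxed samples and at 6.99, 6.89 and 7.04 in the deleted ones. The deleted samples were close to each other and all below the floxed ones, of which floxed 2 was the highest. The means were 7.63 ± 0.34 and 6.97 ± 0.08 (SD, n = 3 each), and the deleted mean was 63.3% of the floxed one as an intensity, a difference of −0.66 ± 0.17 (SE; 95% interval −1.05 to −0.27). This was the smallest p among the 10 genes, and it did not pass (limma adjusted p = 0.135). The second probe set, 1449856_at, read 6.13, 6.69 and 6.39 in floxed and 5.68, 5.52 and 6.06 in deleted samples, a difference of −0.65, also without overlap. Without floxed 2 the difference of Rgs18 at its brighter probe set was −0.47, the smallest of the 6 fits that leave out a sample.

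Since megakaryocytes and platelets express Rgs18, their markers were set beside it. Of 7 listed markers 6 were measured, and limma called 0, with 1, higher in the deleted group, at an unadjusted p under 0.05. Their summed intensities were 199 to 269 in the floxed samples and 161 to 228 in the deleted ones, which overlap. The platelet chemokine genes Pf4 and Ppbp had mean levels below the median probe set. Itgb3, an integrin that other cells also express, gave 150.5 of the summed 268.6 in floxed 1 and 26.2 of 160.7 in deleted 3. Its levels were 7.23, 5.74 and 6.84 in floxed 1, 2 and 3. The other 5 measured markers were each highest in floxed 2 among the floxed mice, as Rgs18 was. The steps ran from small ones in Gp1bb (4.22, 4.27 and 4.19) to those of the dim Ppbp (2.84, 4.10 and 3.69). Between the groups 3 of the 6 markers were higher in the deleted mice, unlike Rgs18: Gp9 (0.30), Gp1bb (0.14) and Itga2b (0.05). The other 3 were lower: Pf4 (−0.09), Ppbp (−0.40) and Itgb3 (−0.97). Their part in the difference of Rgs18 was not tested. Genes were also ranked by how close their pattern over the 6 samples came to that of Rgs18. The measure was the root mean square difference of levels centred on their means. Candidates were 8845 genes with an established symbol and a mean above the median of all genes. The closest were the transcriptional cofactor Irf2bpl (0.08), the neutral sphingomyelinase Smpd3 (0.09) and the cell cycle phosphatase Cdc25b (0.10). They were picked by this pattern, which is highest in floxed 2, and stood there at 8.83, 5.72 and 7.84. None of these 3 passed (limma adjusted p = 0.0837, 0.259 and 0.168), and Smpd3 had 2 of its 3 probe sets higher in the deleted group.

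Rgs2, which acts mainly on Gαq, is induced by many stimuli, and 3 of its 4 probe sets, the bright ones, were higher in the deleted group. The brightest of them, 1419247_at, stood at 9.97, 10.57 and 9.86 in the floxed samples and at 10.78, 10.37 and 10.53 in the deleted ones. Floxed 2 reached the level of the deleted samples, so that the groups overlapped. The difference was 0.43 ± 0.20 (SE; 95% interval −0.04 to 0.89; limma adjusted p = 0.376). Without floxed 2 the difference of Rgs2 was 0.64 (limma adjusted p = 0.115), and with any other sample left out it was 0.29 to 0.52. At 1447830_s_at, whose suffix marks a set that may match transcripts of more than one gene, the values were 8.77, 9.07 and 8.49 against 9.46, 9.21 and 9.42. There the deleted samples lay above the floxed ones by 0.59, without passing (limma adjusted p = 0.174). The third bright set, 1419248_at, had a difference of 0.39. The dim set 1443250_at, between 3.42 and 3.97, had one of −0.14.

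Crebbp is a coactivator of CREB, which binds the cyclic AMP response element, and the start of Rgs2 is shown because it holds the short form of that element. Of the 10 genes 6 had windows in the RefSeq promoter table (GRCm38.p6; 250 bases before to 50 after each start), 9 windows in all, and the other 4 were Rgs1, Rgs14, Rgs18 and Gnai2. The full element TGACGTCA, searched on both strands, was in 0 of the 9 windows and in 1.79% of all 32851 windows of the table. Its short form TGACG, likewise on both strands and contained in the full element, was in 1 of the 9 windows, that of Rgs2, and in 20.8% of all windows. The Rgs2 window at chr1:144004100-144004399, minus strand, reads 5′ to 3′ as follows, with the 2 matches in capitals; they begin 185 and 67 bases before the start, the first of them on the opposite strand. A match is a description of letters and not a measured binding site.
Rgs2: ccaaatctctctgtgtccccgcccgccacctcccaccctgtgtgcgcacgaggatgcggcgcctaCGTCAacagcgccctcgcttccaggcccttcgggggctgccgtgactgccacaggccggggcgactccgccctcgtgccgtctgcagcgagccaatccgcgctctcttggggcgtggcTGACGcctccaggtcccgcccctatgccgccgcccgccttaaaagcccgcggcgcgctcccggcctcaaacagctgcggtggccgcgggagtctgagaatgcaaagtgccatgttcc

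Rgs1, Rgs2 and Rgs18 lie in one stretch of chromosome 1. In the RefSeq order of protein-coding genes (GRCm38.p6), the run Rgs2, Rgs13, Rgs1, Rgs21 and Rgs18 holds 5 genes with no other between them, and 4 of them were measured. Rgs13, a regulator found in germinal centre B cells, was not one of the 10 genes and is described because of its values in floxed 3. It stood at 5.69, 5.06 and 8.49 in floxed 1, 2 and 3 and at 7.13, 7.35 and 6.97 in the deleted samples. Floxed 3 thus had the highest level of all 6 mice, and the other floxed mice had the lowest. With all samples the difference of Rgs13 was 0.74 ± 0.78 (SE, limma adjusted p = 0.722). Without floxed 3 it was 1.77 (limma adjusted p = 0.0165), in a fit that called 1.24% of all genes. That fit drops the sample for which Rgs13 was picked, so its p is not a separate test. Rgs13 has 1 probe set. Without floxed 1 the difference of Rgs13 was 0.38 and without floxed 2 it was 0.06 (limma adjusted p = 0.917 and 0.981). From end to end, the differences of the measured genes were 0.43 in Rgs2, 0.74 in Rgs13, 1.00 in Rgs1 and −0.66 in Rgs18. The outer neighbours Uchl5, beside Rgs2, and Brinp3, beside Rgs18, had differences of 0.10 and −0.10.

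Because Rgs13 marks germinal centre B cells, 7 germinal centre genes were listed after these values had been seen, and they are described without a test as a list. Of these 6 were measured: the transcription factors Bcl6, Mef2b and Mybl1, the death receptor Fas, the signalling protein Gcsam and the receptor S1pr2. All 6 were higher in floxed 3 than in floxed 1 and 2, and all 6 were higher in each deleted sample than in floxed 1 and 2. Mef2b stood at 5.03, 5.19 and 6.98 in floxed and at 6.66, 6.80 and 6.53 in deleted samples. The summed intensity of the 6 genes was 424, 411 and 860 in floxed 1, 2 and 3 and 602 to 732 in the deleted samples. Rgs1 was also lower in floxed 1 and 2 than in floxed 3 and the deleted samples. Its level in floxed 3 (9.27) lay below every deleted sample, whereas the sum of the 6 genes was highest in floxed 3. The part of germinal centre cells in the difference of Rgs1 was not tested.

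**Figure D2:**
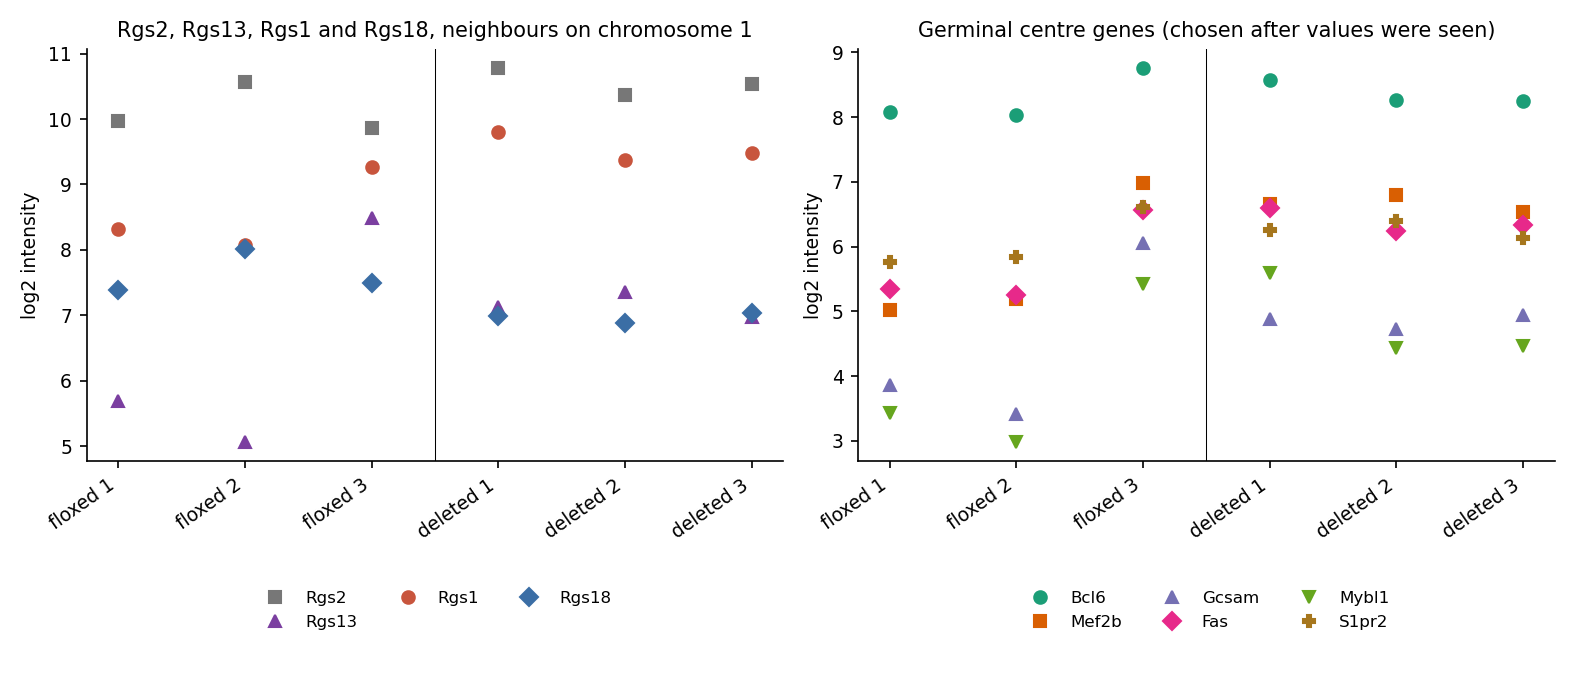
Log2 intensity by sample of the 4 measured genes in the chromosome 1 run (left) and of 6 germinal centre genes (right); each symbol is 1 sample. Floxed 3 lies apart from floxed 1 and 2 in Rgs1 (9.27), in Rgs13 (8.49) and in all 6 germinal centre genes, and no such step is seen in Rgs2 or Rgs18.

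**Figure D3:**
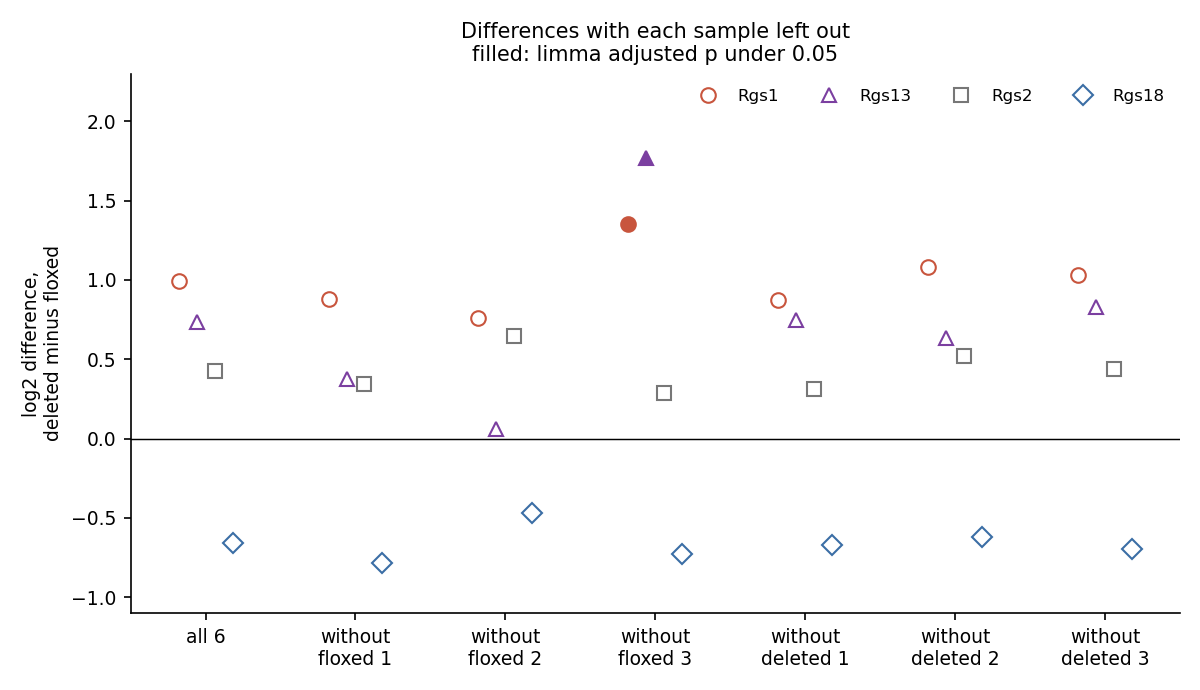
Log2 difference of Rgs1, Rgs13, Rgs2 and Rgs18 with all 6 samples and with each sample left out; filled symbols have a limma adjusted p under 0.05. Without floxed 3, Rgs1 (1.35) and Rgs13 (1.77) passed. Rgs2 and Rgs18 passed in none of these fits, and the signs did not change. Rgs13 was fitted after its values were seen.

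Rgs3 and Rgs16, which also act on Gαi and Gαq, showed small differences. Rgs3 stood at 6.18, 6.51 and 6.44 in floxed and 6.56, 6.27 and 6.71 in deleted samples, with a difference of 0.14 (95% interval −0.20 to 0.47; limma adjusted p = 0.717). Of its 4 probe sets 3 were higher and 1, 1449516_a_at, was level at −0.003. Rgs16 read 3.63, 4.02 and 3.81 against 4.09, 3.99 and 4.08, a difference of 0.23 (95% interval −0.04 to 0.50; limma adjusted p = 0.408). All 3 of its probe sets were higher in the deleted group and all lay below the median probe set, so the size of these differences is uncertain.

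Rgs10 and Rgs14 belong to another branch of the family, which prefers Gαi; Rgs14 also carries a domain that binds the inactive subunit. Rgs10 read 7.25, 7.24 and 7.50 in floxed samples and 7.31, 6.83 and 8.03 in deleted ones. The deleted mice spread over 1.20 log2 units around the floxed ones, with deleted 2 lowest and deleted 3 highest, and the difference was 0.06 (95% interval −0.59 to 0.70). Without deleted 3 it was −0.26, the opposite sign. Rgs14 read 8.36, 9.27 and 8.36 in floxed samples and 8.73, 8.66 and 8.61 in deleted ones. Its floxed mice spread widely because of floxed 2, the deleted mice lay within 0.12, and the difference was 0.004 (95% interval −0.55 to 0.56). Neither gene passed (limma adjusted p = 0.953 and 0.996), and each has 1 probe set.

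Rgs19, also called GAIP, which acts on Gαi, read 9.83, 10.41 and 9.81 in floxed samples and 10.06, 10.17 and 10.09 in deleted ones. As in Rgs14, floxed 2 was the highest of all 6 mice and the deleted mice lay between it and the other floxed mice. The difference was 0.09 (95% interval −0.30 to 0.48; limma adjusted p = 0.863), and it was 0.30 at the second probe set, 1434940_x_at (limma adjusted p = 0.496). At that second set deleted 2 (9.35) lay above floxed 2 (9.26). Floxed 2 was the highest floxed mouse in 6 of the 10 genes, Rgs2, Rgs3, Rgs14, Rgs16, Rgs18 and Rgs19. The share over all genes was not taken, so this count does not set the 10 genes apart. The SD was larger in the floxed than in the deleted group in 7 of the 10 genes, against 53.1% of all genes.

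At the probe sets that represent them, the G protein subunits had the smallest SE of the 10 genes. Gnai2 stood at 11.03, 11.15 and 11.19 in floxed samples and at 11.07, 11.03 and 10.98 in deleted ones. The groups overlapped, and the difference was −0.10 ± 0.09 (SE; 95% interval −0.30 to 0.11; limma adjusted p = 0.676), which bounds a fall of Gnai2 to 0.30 log2 units at this interval. Its second probe set, 1435652_a_at, had a difference of −0.01. Gna13 stood at 9.74, 9.75 and 9.93 in floxed samples and at 9.71, 9.83 and 9.57 in deleted ones. The groups overlapped here too, with a difference of −0.10 ± 0.11 (SE; 95% interval −0.35 to 0.15; limma adjusted p = 0.715). Of the 7 probe sets of Gna13, 5 were lower and 2 higher in the deleted group, between −0.10 and 0.09, and in all 7 the groups overlapped. The set 1430295_at spread widely in the floxed mice, with 8.20, 7.64 and 8.72 in floxed 1, 2 and 3.

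**Figure D4:**
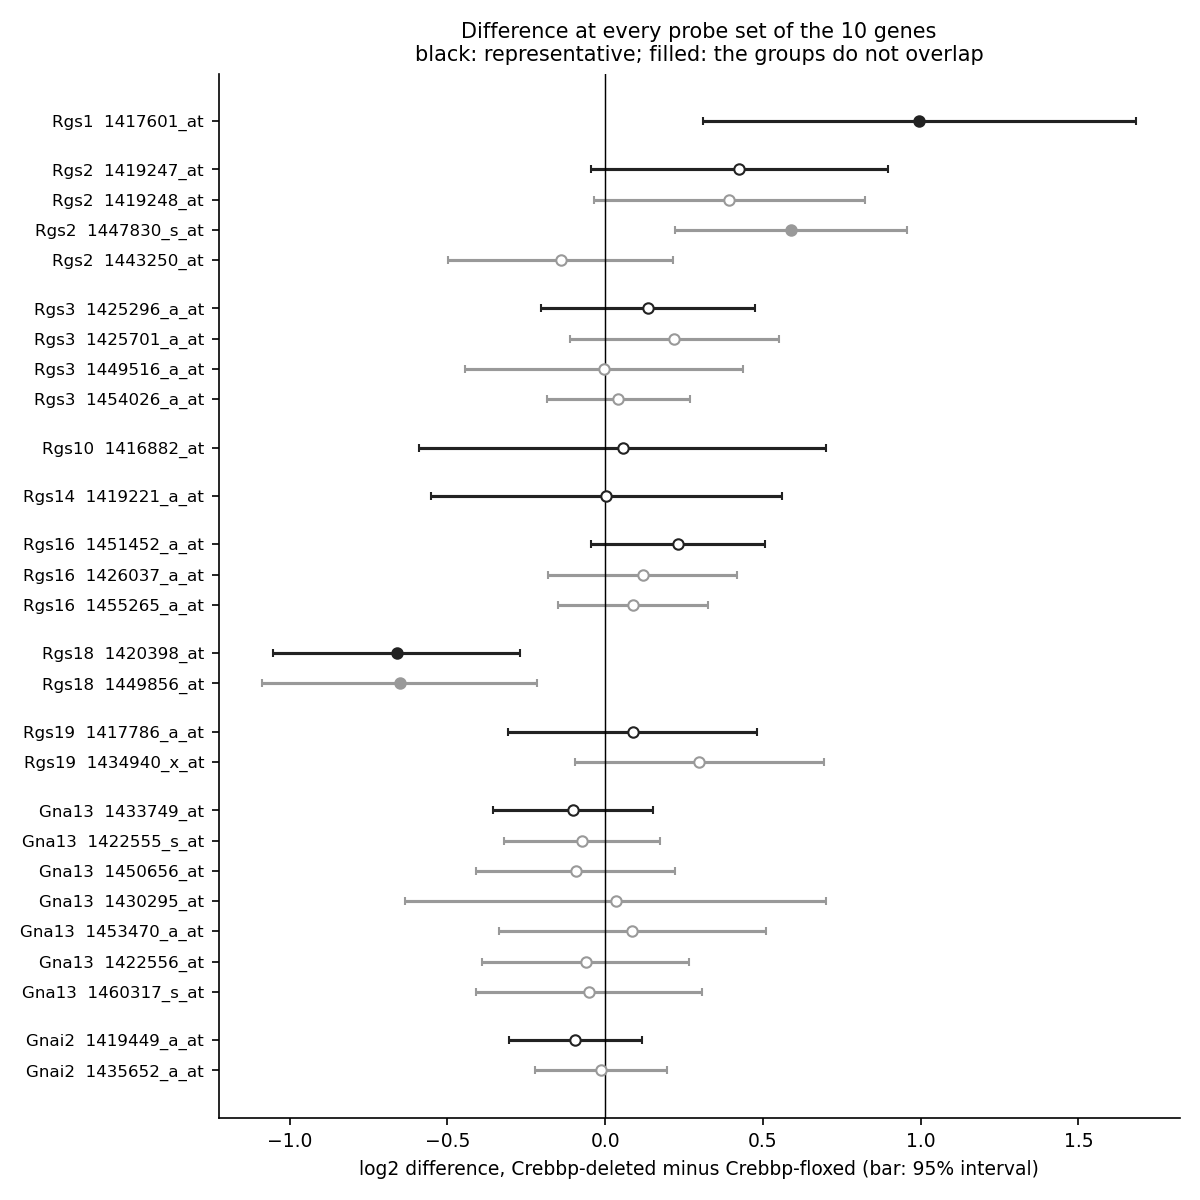
Log2 difference, Crebbp-deleted minus Crebbp-floxed, with its 95% interval at each of the 27 probe sets (black, the representative of a gene; filled, groups without overlap). Both probe sets of Rgs18 lie below 0 (−0.66 and −0.65), those of Gna13 and Gnai2 lie around 0, and the 3 bright probe sets of Rgs2 lie above 0 (0.39 to 0.59) while the dim one does not (−0.14).

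The other genes of the pathway were read from lists by role. limma called 1 of 87 measured genes beside the 10, against 0.781% of all genes. An unadjusted p under 0.05 was found in 20 of the 87 (7 higher and 13 lower), against 14.8% of all genes. The median difference of the 87 genes was 0.025. Of 11 other RGS genes and 13 other alpha subunits limma called 0, and 0 and 2 had an unadjusted p under 0.05. These were Gna11 and Gnaq, both of the Gq class, with differences of 0.39 (limma adjusted p = 0.323) and 0.24 (0.33; 2 of 7 probe sets lower). The RGS genes with the smallest p were Rgs11 (0.19) and Rgs17 (−0.11), which are dim. Among 16 beta and gamma subunits limma called 0, with 3 at an unadjusted p under 0.05. Gng2, a gamma subunit of leukocytes, stood at 8.41, 8.44 and 8.36 in floxed and 8.21, 8.12 and 7.87 in deleted samples, a difference of −0.34 (limma adjusted p = 0.218). Gnb5, the beta subunit that pairs with some RGS proteins, had one of 0.28 (limma adjusted p = 0.304) and is dim.

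Receptors and the proteins that switch them off held no call. Of 16 measured receptors limma called 0, and 4 had an unadjusted p under 0.05, all lower. Over all genes the share in either direction was 14.8%. Ccr6, the receptor for CCL20, stood at 10.46, 10.36 and 10.87 in floxed and at 9.65, 9.56 and 9.12 in deleted samples, without overlap. Its difference of −1.12 ± 0.19 (SE) just missed the threshold (limma adjusted p = 0.0504). Over the alternatives the smallest limma adjusted p among the receptors ran from 0.0349 to 0.165, and 0 to 1 of them passed. Cxcr5, the receptor that leads B cells to follicles, had a difference of −0.57 (limma adjusted p = 0.0989). Of 12 receptor kinases, arrestins and G protein chaperones limma called 0, with 3 at an unadjusted p under 0.05 (14.8% of all genes). The smallest p-values were those of Gpsm3, which binds inactive Gαi (−0.38; limma adjusted p = 0.117), and of the arrestin Arrb2 (−0.46; 0.198).

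Of 19 measured effectors 1 rose, and 8 had an unadjusted p under 0.05 (3 higher and 5 lower), against 14.8% of all genes. The groups did not overlap in 10 of the 19, against 21.2% of all genes. Over the alternatives limma called 0 to 3 of these effectors. The gene that rose was Arhgef12, known as LARG, a guanine nucleotide exchange factor that Gα12 and Gα13 activate and that carries an RGS-like domain. It stood at 6.80, 6.59 and 6.61 in floxed samples and at 7.33, 7.37 and 7.38 in deleted ones. The groups were well apart, with a difference of 0.69 ± 0.09 (SE; limma adjusted p = 0.0291), a 1.62-fold rise. All 4 of its probe sets were higher in the deleted group, by 0.34 to 1.09. The call needs all 6 mice: without any 1 of them the difference of Arhgef12 was 0.66 to 0.76 with a limma adjusted p between 0.0515 and 0.125, and with sex as a term it was 0.66 (limma adjusted p = 0.0787). The other exchange factors of Gα13, Arhgef1 and Arhgef11, had differences of −0.01 and −0.07.

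**Figure D5:**
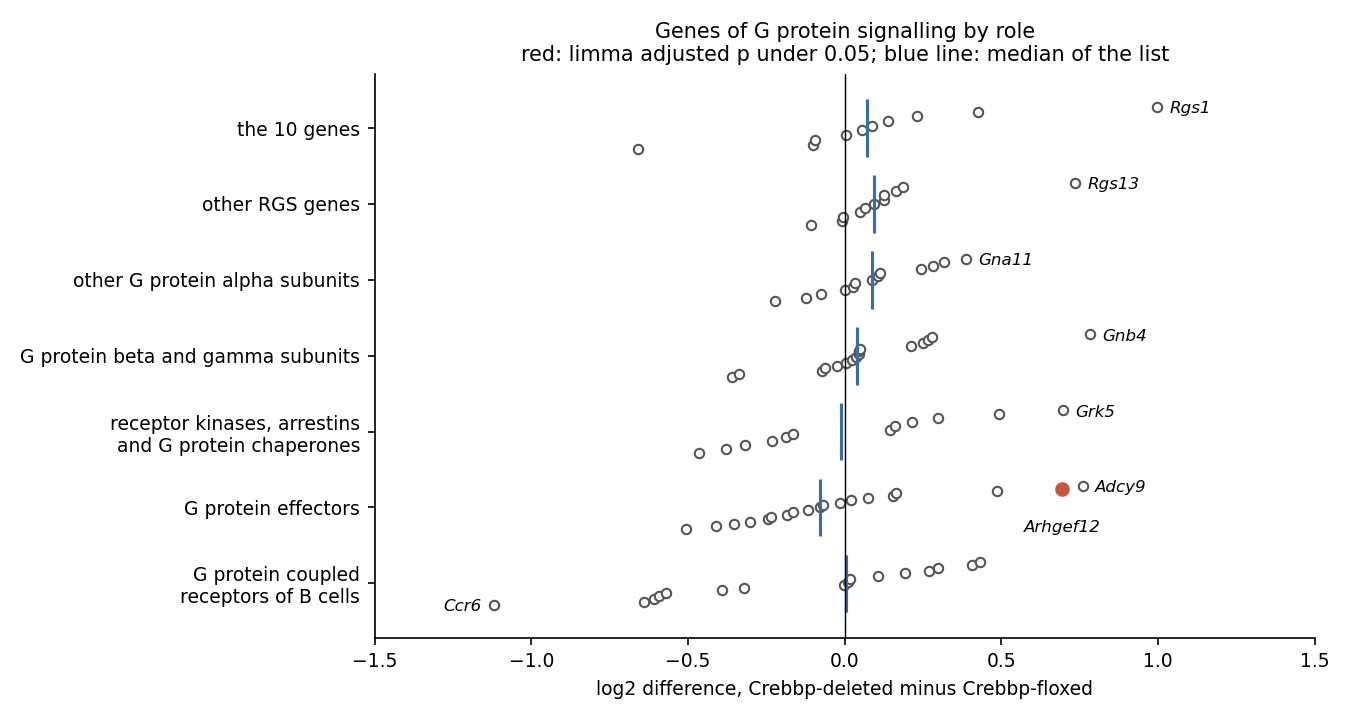
Log2 difference, Crebbp-deleted minus Crebbp-floxed, of each measured gene by role (points; blue line, median of the list; red, limma adjusted p under 0.05). Arhgef12 (0.69) is the 1 gene past the threshold, and the medians of the lists lie between −0.08 and 0.09.

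Marker lists of other cells were read beside these genes, and Jchain was the 1 marker of another cell type that passed. The summed intensity of 8 plasma cell markers was 5949 to 6857 in the floxed and 12020 to 18700 in the deleted samples. Of these markers limma called 1, Jchain, higher by 1.65 (limma adjusted p = 0.0105). All 8 were higher in the deleted group, and 7 had an unadjusted p under 0.05, against 14.8% of all genes. The summed intensity of 10 macrophage and monocyte markers was 1519, 445 and 875 in floxed 1, 2 and 3. It was 2946, 1430 and 3343 in deleted 1, 2 and 3. All 10 were higher in the deleted group, none passed limma, and 7 had an unadjusted p under 0.05 (14.8% of all genes). Within the deleted group Rgs10 was lowest in deleted 2 and highest in deleted 3, as this sum was. Among the floxed mice Rgs10 (7.25, 7.24 and 7.50) and this sum were both lowest in floxed 2. Rgs10 was highest in floxed 3 and the sum in floxed 1. Deleted 2 had a lower Rgs10 (6.83) than floxed 2 (7.24) beside a higher macrophage and monocyte sum. The dendritic cell sum was 272, 175 and 407 in floxed 1 to 3 and 309, 290 and 385 in deleted 1 to 3. Within each group its order was that of Rgs10. Across groups it was not, as the dendritic cell sum was highest in floxed 3 and Rgs10 in deleted 3. For 7 B cell markers the sum was 19720 to 22810 in the floxed and 16320 to 17470 in the deleted samples (1 of 7 fell, Cd79a, by 1.11 log2 units; limma adjusted p = 0.00928). For 16 immediate early and stress genes, to which handling of cells can add, it was 25010, 40410 and 27790 in floxed 1, 2 and 3 and 39600 to 46450 in the deleted samples (1 of 16 rose, Atf3, by 2.33; limma adjusted p = 0.0148). Floxed 2 was the highest floxed mouse in that sum and in Rgs2. The heat shock genes Hspa1a and Hspa1b gave 2036 and 5685 of the sum in floxed 2, beside 115 and 405 in floxed 1. Genes of the list differed in this order: among the floxed mice Fos was highest in floxed 2 (13.04) and Atf3 in floxed 3 (6.94). Without floxed 1 limma called 0 of all genes, with 1990 at an unadjusted p under 0.05, so that the calls of Jchain, Cd79a and Atf3 were lost there. All 3 calls were also lost without deleted 1, where the smallest limma adjusted p of the plasma cell, B cell and immediate early lists was 0.0523, 0.0566 and 0.0671, and that of Atf3 was lost with sex as a term (0.0541). The sums of the T cell, NK cell, neutrophil, dendritic and erythroid lists were 151 to 214, 111 to 226, 101 to 467, 175 to 407 and 56.9 to 67.8 in the floxed samples and 220 to 248, 128 to 169, 90.5 to 636, 290 to 385 and 56.4 to 116 in the deleted ones, and limma called 0 of their genes, with 1, 0, 0, 1 and 0 at an unadjusted p under 0.05. The part of other cells in the differences of the 10 genes was not tested.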

How the data were processed

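B cells from 3 Crebbp-floxed and 3 Crebbp-deleted mice gave 1 array each. The deposited table holds linear intensities from 2.96 to 17022, made by the authors with RMA per the submitters' processing notes (background correction, quantile normalization and summary per probe set; version not given in the sources used here). They were log2-transformed here. Symbols came from the platform's annotation: 34958 probe sets had 1 symbol, 932 several and 9211 none. The 64 control probe sets were left out, and 34741 of the rest with 1 symbol matched a gene ID in RefSeq's GRCm38.p6 table. Each of 18193 genes was represented by its probe set with the highest mean. The comparison of the groups used lmFit and eBayes of limma 3.58.1, run in R 4.3.3 (two-sided, Benjamini-Hochberg over all genes, threshold 0.05), and all probe sets in a second fit; the procedure was tested on simulated data. Arrays have no read depth, and their number limits the precision; no 2 arrays were copies.

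The 10 genes and the lists were chosen with earlier results of these data known, and the germinal centre list and the fits of Rgs13 after its values were seen. Named beside the 10 genes are, from each list of the pathway, the genes past the test or otherwise the 2 with the smallest p, and the 3 genes most like Rgs18; Rgs13, the outer neighbours Uchl5 and Brinp3, Arhgef1, Arhgef11 and Ms4a1 were named after their values were seen. Alternatives covered probe set choice, normalization, a filter, an offset of 16, limma settings, the replicate number, sex and each sample left out. Python 3.11.15 with matplotlib 3.10.9 made the figures.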

Additional observations from a re-analysis of the deposited data

How the results depend on the processing

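limma called 0 of the 10 genes in 15 of 16 alternatives and 0 of their probe sets in 13 of 14; with each sample left out both counts ran from 0 to 1, the 1 being Rgs1 without floxed 3. The signs of Rgs1, Rgs2, Rgs16, Rgs18 and Gnai2 stayed the same in every alternative run (Rgs16, which is dim, has no value under the filter). Signs turned in genes whose differences lie near 0: Rgs3 was −0.00345 and Gna13 0.033 at the probe set with the largest variance, Rgs10 was −0.043 with array weights and −0.065 with sex as a term, and with samples left out Rgs10 ran from −0.263 to 0.337, Rgs14 from −0.149 to 0.307 and Rgs19 from −0.017 to 0.284; none of these passed. Over all genes 142 passed; the count was 222 with trend and robust eBayes, 291 with array weights, 37 with sex as a term, and 0 to 226 with samples left out, with 0 without floxed 1 (1990 at an unadjusted p under 0.05), 226 without floxed 3, and 16, 45 and 62 without deleted 1, 2 and 3. The causes of these shifts were not tested. Same-numbered samples of the groups had deviations correlated at 0.033, 0.104 and 0.006, beside −0.117 to 0.079 in the other pairs. With 3 samples in each group these values cannot settle whether the numbers pair the samples. The replicate number as a block called 126 genes, 0 of the 10, and not Arhgef12 (limma adjusted p = 0.0636). The arrays' number limits every value, and dim probe sets, among them all of Rgs16, limit the size of their differences.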
